A study of Mus musculus with 6 samples.

Results

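SOX, RUNX, MEF2, FOXA and NKX3 transcription factors direct the life of a growth plate chondrocyte, the cartilage cell through which long bones lengthen. SOX9, with SOX5 and SOX6, switches on the genes of the cartilage matrix, and NKX3-2 helps to hold chondrocytes in an immature state. RUNX2, RUNX3 and MEF2C drive the enlargement of these cells (hypertrophy), and FOXA2 and FOXA3 act with them at the hypertrophic stage. The 10 genes described here, Sox5, Sox6, Sox9, Runx1, Runx2, Runx3, Mef2c, Foxa2, Foxa3 and Nkx3-2, were chosen by name. They were found through the RefSeq accession of each array probe, which gave 14 probes out of 55681, and 10 symbols out of 20145.

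The tissue was growth plate cut by laser microdissection from the tibia of untreated male C57BL/6J mice aged 4 weeks. The 3 genotypes were ATF6aKO, ATF6bKO and wild type (WT), with 2 arrays each. ATF6a and ATF6b are transcription factors held in the membrane of the endoplasmic reticulum and released when unfolded protein builds up there, and the study asked about their part in the growth of long bones. The labels do not say how the alleles were made, whether the deletion was limited to one cell type, or whether a genotype's arrays stand for different mice. Every p-value here thus reflects array-to-array spread alone, and that spread may be technical.

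The values are fluorescence intensities, normalised and on a log2 scale, so that 1 unit is a doubling. The 4 knockout arrays lay on 1 slide and were read in a red channel, whereas both WT arrays lay on another slide and were read in a channel named green. Slide and channel therefore cannot be told apart from genotype in either comparison with WT, and only ATF6aKO against ATF6bKO is free of that. Median spot intensity was 146 to 183 on knockout arrays over a background of 37, and 210 to 259.5 on WT arrays over a background of 17. Correlations between arrays were 0.9704 to 0.9881 among knockouts, 0.96 between the WT arrays and 0.8508 to 0.9057 between knockout and WT. The chondrocyte markers Col2a1, Acan, Col9a1, Matn1, Comp and Col10a1 were well above background on every array. The probes for Atf6 (6.91 to 7.28) and Atf6b (8.41 to 9.19) were also well above background on every array; where they lie relative to the deleted part is not given in the sources used here, so they do not check the genotype labels.

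WT replicate 1 stood apart in the mean of the bone cell markers, though not in each of them. The mean log2 level of 6 osteoblast and osteocyte markers was 11.13 there, against 7.83 in WT replicate 2 and 7.49 to 8 on the knockout arrays. That of 6 osteoclast markers was 9.3 against 7.48 and 7.69 to 7.99. Bglap2 (10.56 and 10.22), Mepe (6.82 and 6.93), Sost (6.43 and 6.45) and Dcstamp (9.83 and 9.76) differed little between WT replicates 1 and 2. The mean of 5 red cell markers was high on both WT arrays, at 9.99 and 9.01 against 7.33 to 7.71. So was that of 8 endothelial markers, at 8.64 and 8.31 against 7.59 to 7.73. Not every gene was: Alas2 (WT 7.68 and 7.39, knockouts 7.09 to 7.71) and Klf1 (8.11 and 8.89, 8.01 to 8.81) overlapped with the knockouts. Tek (8.03 and 7.47, 7.52 to 7.92) and Cdh5 (6.7 and 6.73, 6.32 to 6.73) also did, as did Emcn in WT replicate 2 (7.62, 7.38 to 7.68). Markers of marrow and immune cells did not set WT replicate 1 apart: B lymphocyte markers were at 8.13 and 8.37 in WT replicates 1 and 2 (7.92 to 8.02 in the knockouts), T and NK cell markers at 9.16 and 9.38 (8.69 to 8.86), neutrophil markers at 7.29 and 7.39 (7.06 to 7.13) and macrophage markers at 9.03 and 9.16 (8.93 to 9.07). RUNX1, RUNX2 and MEF2C are also made by cells of bone, marrow or vessels, and the part of these cells in the results below was not tested. In such bulk tissue, fewer cells of a type and less RNA per cell cannot be told apart.

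Across the 14 probes, 12 to 13 were well above background on each array except ATF6bKO replicate 2, where 10 were. Of the 14, 5 passed an adjusted p of 0.05 in ATF6aKO against WT (4 higher, 1 lower), where 41.9% of all 24907 tested probes did (20.1% higher, 21.8% lower). In ATF6bKO against WT, 2 of 14 passed (1 higher, 1 lower), where 36.5% of all probes did (16.6% higher, 19.9% lower). In ATF6aKO against ATF6bKO none of the 14 passed, and the share of all probes was 0%. At an unadjusted limma p under 0.05 there were 3 of the 14 (Sox9, the dimmer Foxa2 probe and Foxa3) and 1605 of all probes. Sox9 and the dimmer Foxa2 probe entered the test only through ATF6aKO, where they are high. Among the probes called, 47.9% and 45.4% were higher in ATF6aKO and ATF6bKO than in WT, and 60.6% and 62.7% with 75th percentile scaling in place of quantile normalisation. The shares of members called against WT were thus no higher than those of all probes. The arrays of the genotypes did not overlap for 13, 11 and 6 of the 14 probes in these comparisons, where 72.9%, 72.5% and 37.1% of all probes did not overlap. Fold sizes of dim probes depended on the background correction (normexp, a model that keeps dim signals above 0), and the values from the scanner's own processed signal, with no normexp, are given beside the calls below.

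**Figure D1:**
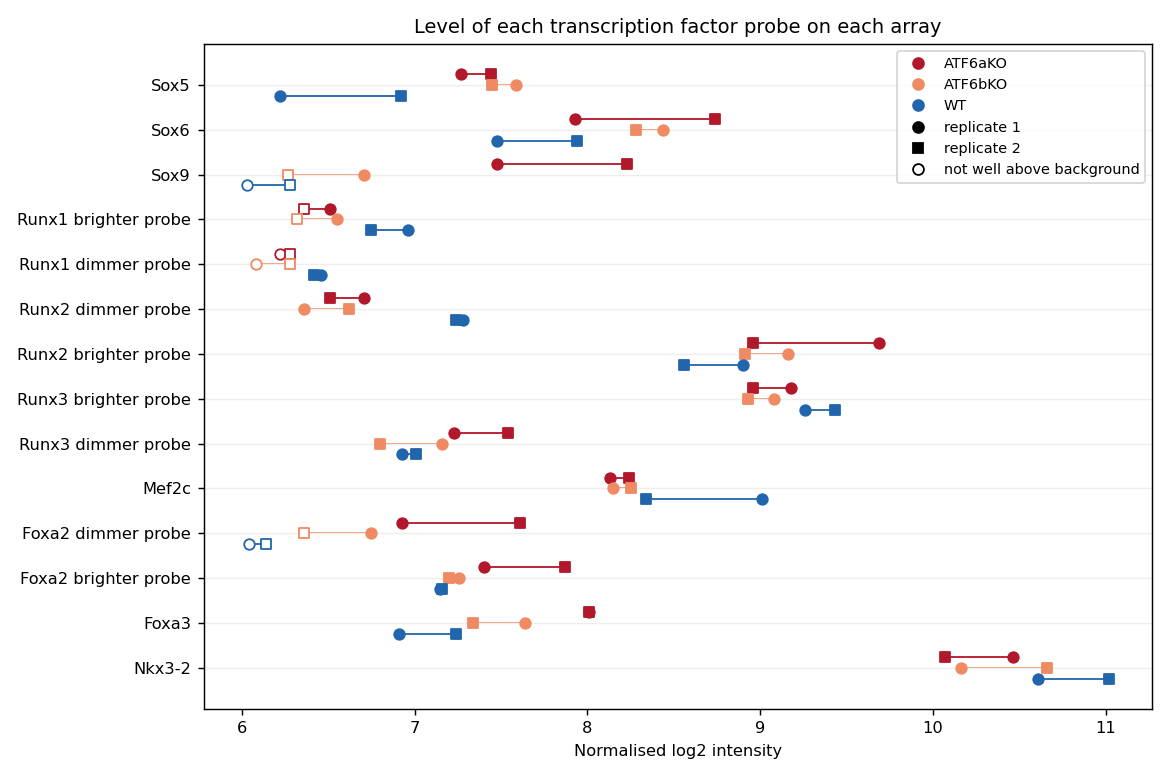
Normalised log2 intensity (horizontal axis) of each of the 14 probes (rows) on each of the 6 arrays; colour gives the genotype, circles replicate 1, squares replicate 2, and hollow symbols probes not well above background. The Sox9 probe is hollow on both WT arrays and on ATF6bKO replicate 2 and lies highest on the ATF6aKO arrays. Positions of different probes are not comparable with each other. Detection was judged in different channels for WT and knockouts, so hollow symbols do not compare directly between them.

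Sox9, the master regulator of chondrocyte identity, had its highest signal in ATF6aKO. Its log2 level was 7.48 and 8.23 on the ATF6aKO arrays, 6.71 and 6.27 for ATF6bKO, and 6.03 and 6.28 for WT. Both ATF6aKO arrays lay above all others, whereas ATF6bKO and WT overlapped. The single Sox9 probe is printed 10 times on the array, and the spots show how the call arose. The ATF6aKO arrays had median raw intensities of 155.75 and 248.25, the ATF6bKO arrays 81.75 and 52.75, and the WT arrays 42.5 and 45.75. Divided by local background, they were 4.33 and 6.8 (ATF6aKO), 2.18 and 1.45 (ATF6bKO), and 2.5 and 2.69 (WT). WT was read in another channel over a lower background, so raw intensity and detection do not compare directly between WT and knockouts. All 10 spots were well above background on both ATF6aKO arrays and on ATF6bKO replicate 1, but 0 on ATF6bKO replicate 2, 1 on WT replicate 1 and 0 on WT replicate 2. Spots within an array varied by 7.71% to 10.3% (coefficient of variation), and the SD of their log2 values was 0.11 to 0.15, less than the SD of 0.53 between the ATF6aKO arrays. Repeated spots thus agreed more closely than the arrays of that genotype.

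**Figure D2:**
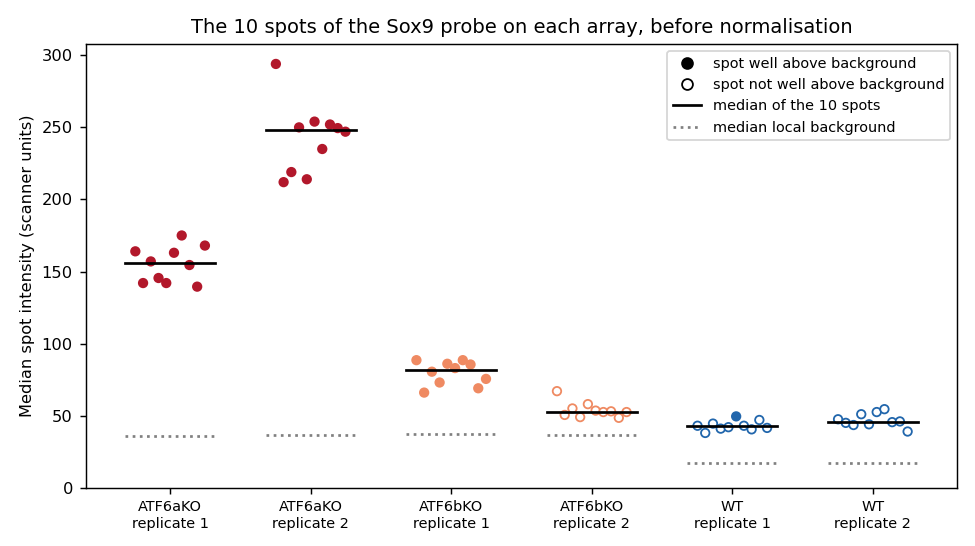
Raw median intensity (scanner units, from 0) of the 10 Sox9 spots on each array; solid lines are the median of the spots, dotted lines the local background, and hollow points are spots not well above background. All ATF6aKO spots lie at 139.5 or above, and all spots of the other arrays at 88.5 or below. The median background is 36 to 37.5 on knockout arrays and 17 on WT arrays, read in another channel. Heights and hollow points therefore do not compare directly between WT and knockouts.

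Sox9 was not well above background on either WT array, so its fold against WT is a bound, set against the higher of its own signal and the dimmest detected probe on each array. The point estimate of that bound put ATF6aKO 3.26-fold above WT (log2 difference 1.71, SE 0.28, 95% interval 1.06 to 2.35, limma adjusted p = 0.00311). The bound covers the lack of detection only, not the spread between arrays. Leaving out an array gave log2 differences of 1.33 to 2.08. The probe entered the test only through ATF6aKO, the genotype where it is high, so this call favours a difference and is given as a description. With the processed signal the log2 difference was 4.50, a fitted value against a WT level that was not detected. ATF6bKO, where 1 of the 2 arrays measured Sox9 above background, against WT gave 0.34 (SE 0.28, 95% interval -0.3 to 0.99, adjusted p = 0.364). Between the knockouts, which share a slide and a channel, the difference was 1.36 (SE 0.28, 95% interval 0.72 to 2.01), again with 1 of the 2 ATF6bKO arrays above background. That interval is not adjusted for the number of probes, and the limma adjusted p was 0.582. Here too the probe entered the test only through ATF6aKO, and ATF6bKO replicate 2 did not detect it, so these values are descriptions. Fitted on the 4 knockout arrays alone, the adjusted p was 0.0696.

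Sox5 and Sox6, the co-factors that help SOX9 bind its enhancers, were both above WT in each knockout, and Sox5 passed the test. Sox5 measured 7.27 and 7.44 (ATF6aKO), 7.59 and 7.45 (ATF6bKO), and 6.22 and 6.92 (WT). Both WT arrays lay below every knockout array. Sox5 rose by 0.79 in ATF6aKO (SE 0.24, 1.72-fold, limma adjusted p = 0.0333) and by 0.95 in ATF6bKO (SE 0.24, 1.93-fold, adjusted p = 0.019). Without WT replicate 1, the lower of the WT arrays, these became 0.44 and 0.60, with adjusted p = 0.135 and 0.0553. The first call was also lost without any one knockout array (adjusted p 0.0593 to 0.153), and the second without either ATF6bKO array (0.11 and 0.0717). With the processed signal the differences were 2.12 and 2.26 (4.34-fold and 4.8-fold). The knockouts differed from each other by -0.16 (95% interval -0.72 to 0.39).

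Sox6 measured 7.93 and 8.74 (ATF6aKO), 8.44 and 8.28 (ATF6bKO), and 7.48 and 7.94 (WT). ATF6aKO replicate 1 overlapped with WT, and the ATF6bKO arrays did not. The differences from WT were 0.63 (SE 0.28, adjusted p = 0.112) and 0.65 (SE 0.28, adjusted p = 0.111), and neither passed. Single arrays decided this: the first ranged from 0.22 without ATF6aKO replicate 2 to 1.03 without ATF6aKO replicate 1 (adjusted p = 0.0268) and passed without WT replicate 2 (0.85, adjusted p = 0.0493). The second ranged from 0.42 without WT replicate 1 to 0.87 without WT replicate 2 (adjusted p = 0.0481). The knockouts differed by -0.02, with a 95% interval of -0.68 to 0.64.

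Nkx3-2, a repressor that acts in immature chondrocytes, was lower in the knockouts than in WT but did not pass. It measured 10.46 and 10.07 (ATF6aKO), 10.16 and 10.66 (ATF6bKO), and 10.61 and 11.02 (WT). One ATF6bKO array overlapped with WT. The differences were -0.56 (SE 0.25, adjusted p = 0.104) and -0.40 (SE 0.25, adjusted p = 0.232). The first became -0.76 without WT replicate 1 (adjusted p = 0.0424) and -0.35 without WT replicate 2. The second ranged from -0.65 without ATF6bKO replicate 2 to -0.16 without ATF6bKO replicate 1.

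RUNX proteins bind a short DNA site, which was sought near the starts of the genes. RefSeq start-site windows (250 bases before to 50 after the start, GRCm38.p6) were at hand for 9 of the 10 genes, 20 windows in all, with none for Sox9. The site TGTGGT, on either strand, lay in 5 of these 20 windows (Runx1, Runx2, Runx3 and Sox6) and in 16.8% of all 32851 windows. Runx1 and Runx3 each also had a window without it. A doubled site, ACCACA (the same site read on the other strand) repeated after a gap of any 2 bases, lay in 1 window each of Runx1, Runx2 and Runx3 and in only 7 of all windows (0.0213%); it was searched for after the sequences had been seen, and it overlaps the single site. The following 30-base stretches, on the strand of the gene, show it in capitals; in the Runx2 stretch the capitals at the end mark a second form of the site, TGCGGT (6.45% of all windows). They are chr16:92826025-92826054 (minus strand, bases 21 to 50 after the start), chr17:44814583-44814612 (minus strand, bases 16 to 45) and chr4:135120503-135120532 (plus strand, positions -142 to -113 from the start).
Runx1: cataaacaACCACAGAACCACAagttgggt
Runx2: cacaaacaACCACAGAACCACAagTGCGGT
Runx3: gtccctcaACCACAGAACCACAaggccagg

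The letters of the doubled site were the same in all 3 genes. Runx2 and Sox5 each had a probe called in both comparisons with WT, and the 250 bases before their starts are given for that reason (Runx2 chr17:44814628-44814877 and Sox5 chr6:143947107-143947356, both minus strand). Capitals mark the single RUNX site; the Sox5 window held none of the motifs searched.
Runx2: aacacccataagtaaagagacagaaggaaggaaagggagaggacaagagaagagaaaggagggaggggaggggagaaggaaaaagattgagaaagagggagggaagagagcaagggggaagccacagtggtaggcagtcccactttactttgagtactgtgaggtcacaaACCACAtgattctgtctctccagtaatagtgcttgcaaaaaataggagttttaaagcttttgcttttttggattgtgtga
Sox5: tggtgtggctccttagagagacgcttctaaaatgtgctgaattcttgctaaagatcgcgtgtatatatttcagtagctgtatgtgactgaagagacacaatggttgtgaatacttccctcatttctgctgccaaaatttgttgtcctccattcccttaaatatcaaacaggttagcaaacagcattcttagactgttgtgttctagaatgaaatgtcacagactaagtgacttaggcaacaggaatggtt

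Sites of ATF6 were also sought in the 20 windows. The ER stress response element, CCAAT followed after 9 bases by CCACG, was in 0 of 20 (0.119% of all windows), and the unfolded protein response element TGACGTGG in 0 of 20 (0.676%). The SOX core AACAAT was in 1 (Sox6; 3521 of all 32851 windows), the MEF2 core in 0 (0.164%) and the FOXA core TGTTTAC in 0 (3.65%). An absent match says only that these letters are not in these windows.

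Runx2, the main driver of hypertrophy and of bone formation, gave opposite signs with its 2 probes. The dimmer probe measured 6.71 and 6.51 (ATF6aKO), 6.36 and 6.62 (ATF6bKO), and 7.28 and 7.24 (WT). Both WT arrays lay above all 4 knockout arrays. Its log2 difference from WT was -0.65 in ATF6aKO (SE 0.17, 1.57-fold, limma adjusted p = 0.0202) and -0.77 in ATF6bKO (SE 0.17, 1.71-fold, adjusted p = 0.012). The brighter probe measured 9.69 and 8.96 (ATF6aKO), 9.16 and 8.91 (ATF6bKO), and 8.9 and 8.56 (WT). Its WT arrays lay below all knockout arrays, the closest being 8.9 against 8.91, and its differences were 0.60 (SE 0.26, adjusted p = 0.104) and 0.30 (SE 0.26, adjusted p = 0.396). No direction is therefore given for the gene. With the mean of both probes the differences were -0.03 and -0.23, and with 75th percentile scaling the dimmer probe was at -0.42 (adjusted p = 0.0832) and -0.46 (0.0708). Its calls were also lost without ATF6aKO replicate 2 (adjusted p = 0.0988) and without ATF6bKO replicate 1 (0.098), respectively. With the processed signal they were -1.54 and -1.75 (2.91-fold and 3.36-fold). The brighter probe in ATF6aKO against WT passed without ATF6aKO replicate 2 (0.96, adjusted p = 0.0366) and was at 0.23 without ATF6aKO replicate 1. The knockouts differed by 0.12 (95% interval -0.28 to 0.53) and 0.29 (-0.32 to 0.90) with the dimmer and the brighter probe.

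Runx1, better known from blood formation and also present in early chondrocytes, was close to background in the knockouts. Its brighter probe measured 6.51 and 6.36 (ATF6aKO), 6.55 and 6.32 (ATF6bKO), and 6.96 and 6.75 (WT), and it was detected on 1 array of each knockout and on both WT arrays. The WT arrays lay above the rest, and the difference of -0.42 in each comparison (SE 0.17, adjusted p = 0.088 and 0.0968) did not pass. The dimmer probe was not well above background on any knockout array and entered the test only through WT. The point estimate of the bound put WT 1.14-fold above ATF6aKO (adjusted p = 0.354) and 1.18-fold above ATF6bKO (adjusted p = 0.229). Neither difference passed. The bound covers the lack of detection only, and the intervals from the spread between arrays also included WT being lower. Slide and channel also differ in these comparisons, and the part of blood or vessel cells in the Runx1 signal was not tested.

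Runx3, which shares functions with RUNX2 in cartilage, did not pass with either probe. The brighter one measured 9.18 and 8.96 (ATF6aKO), 9.08 and 8.93 (ATF6bKO), and 9.26 and 9.43 (WT). The dimmer one measured 7.23 and 7.54, then 7.16 and 6.8, then 6.93 and 7.01 in the same order. Signs differed between the probes, at -0.28 and 0.41 in ATF6aKO against WT and at -0.34 and 0.01 in ATF6bKO against WT. With 75th percentile scaling the dimmer probe passed in ATF6aKO against WT (0.63, adjusted p = 0.0338).

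Mef2c, the partner of RUNX2 in hypertrophy, was nearly level among the knockouts. It measured 8.13 and 8.24 (ATF6aKO), 8.15 and 8.25 (ATF6bKO), and 9.01 and 8.34 (WT). The 4 knockout arrays spanned 8.13 to 8.25, and the high value was WT replicate 1, the array with the high mean of bone markers. The differences from WT were -0.49 (SE 0.23, adjusted p = 0.127) and -0.48 (SE 0.23, adjusted p = 0.145). Without WT replicate 2 they became -0.82 and -0.81, with adjusted p = 0.0139 and 0.0163. Between the knockouts the difference was -0.01 (95% interval -0.55 to 0.53).

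Foxa2 and Foxa3, forkhead factors of hypertrophic chondrocytes and of endoderm, had their highest signal in ATF6aKO, as Sox9 did. Foxa3 measured 8.01 and 8.01 (ATF6aKO), 7.64 and 7.34 (ATF6bKO), and 6.91 and 7.24 (WT). The 3 genotypes did not overlap. Foxa3 rose in ATF6aKO by 0.93 (SE 0.19, 1.91-fold, limma adjusted p = 0.00682), and was 0.41 above WT in ATF6bKO (SE 0.19, adjusted p = 0.123). Its difference between the knockouts was 0.52 (95% interval 0.09 to 0.96, adjusted p = 0.688).

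The dimmer Foxa2 probe measured 6.93 and 7.61 (ATF6aKO), 6.75 and 6.36 (ATF6bKO), and 6.04 and 6.14 (WT). Neither WT array nor ATF6bKO replicate 2 had it well above background. The point estimate of the bound put ATF6aKO 2.27-fold above WT (log2 difference 1.18, SE 0.25, 95% interval 0.6 to 1.77, limma adjusted p = 0.00861). Leaving out an array gave log2 differences of 0.845 to 1.52. Like Sox9, the probe entered the test only through ATF6aKO, where it is high. With the processed signal it was at 4.57 in ATF6aKO and 2.99 in ATF6bKO against WT, and the second then passed (limma adjusted p = 0.0225). Processed signals under 1 were set to 1, and WT did not detect the probe. These are thus fitted values against an undetected level, not measured folds. The brighter Foxa2 probe measured 7.4 and 7.87, then 7.26 and 7.2, then 7.15 and 7.16, and its difference of 0.48 in ATF6aKO against WT did not pass (SE 0.19, adjusted p = 0.0785). It passed without ATF6aKO replicate 1 (0.72, adjusted p = 0.0279) and with 75th percentile scaling (0.66, adjusted p = 0.0285). Both probes had the same sign in all 3 comparisons, and between the knockouts they differed by 0.72 (95% interval 0.13 to 1.30) and 0.41 (-0.04 to 0.86). The first value is that of the dimmer probe, whose entry through ATF6aKO limits this comparison too. The Foxa3 call in ATF6aKO against WT held without any one array, with adjusted p of at most 0.0406. For Sox9 and the dimmer Foxa2 probe the adjusted p without any one array was at most 0.0215 and 0.0484, within the limit set by how they entered the test. Among 4 endoderm markers the mean level was 7.43 to 7.55 in the knockouts and 7.11 and 7.25 in WT, but the markers went different ways. In ATF6aKO and ATF6bKO against WT, Shh (1.29 and 1.34) and Alb (0.73 and 0.87) passed as higher. Apoa1 passed as lower (-0.79 and -0.73), and Ttr did not pass (0 and -0.1).

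**Figure D3:**
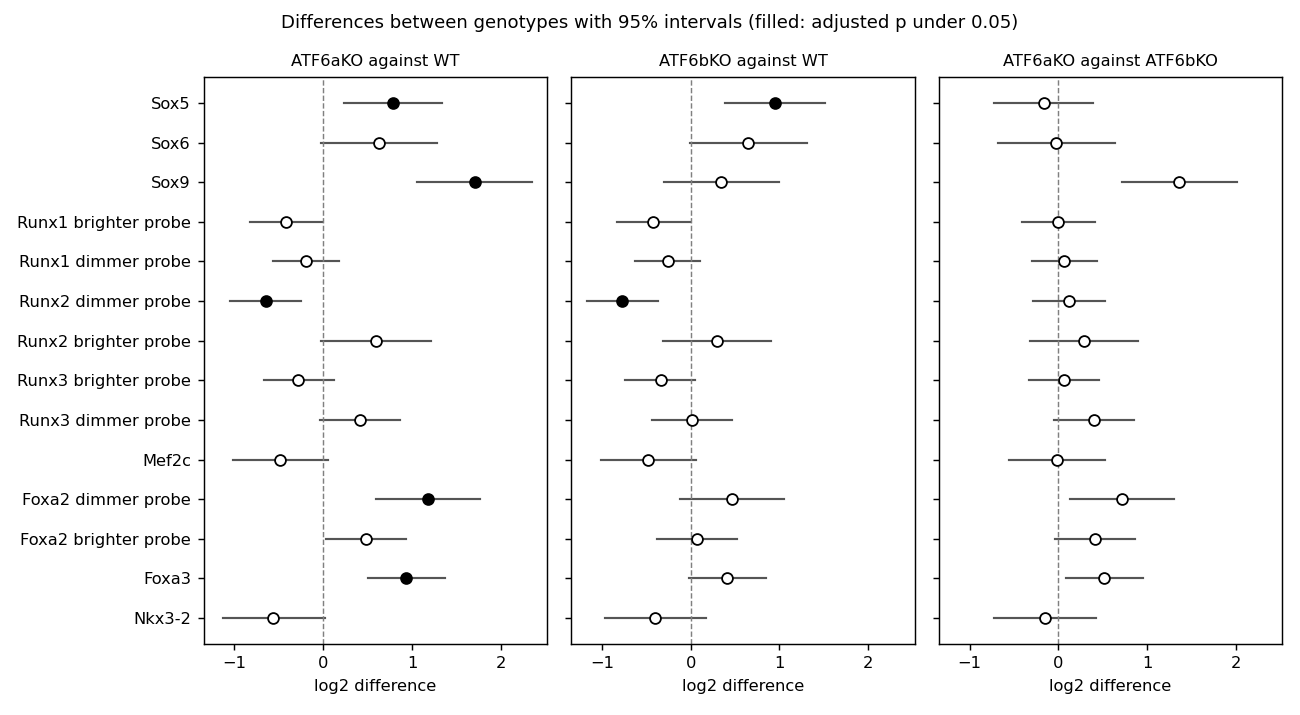
Log2 difference between genotypes (horizontal axis) with its 95% interval for each of the 14 probes, in 1 panel per comparison; filled points passed an adjusted p of 0.05. In the panel of ATF6aKO against ATF6bKO no point is filled, and Sox9 at 1.36 lies farthest from 0.

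Most genes that SOX9, SOX5 and SOX6 act on rose in ATF6aKO, and fewer than that did in ATF6bKO. In ATF6aKO, 15 of 19 rose and 3 fell, where 20.3% of all 19122 genes rose and 22.3% fell. In ATF6bKO, 9 rose and 3 fell, where 17.3% rose and 20.2% fell. With the processed signal, with a trended and robust variance or with only the 4 arrays compared, 6 rose in ATF6bKO, and the falls in ATF6aKO numbered 1 under each of these settings. Leaving out either ATF6aKO array also gave 6 rises in ATF6bKO. The median log2 difference of the list was 2.51 and 1.12, against -0.03 and -0.05 for all genes. Slide and channel differ in these comparisons as they do for Sox9 itself. In the authors' deposited table, whose values follow the green channel, 2 rose and 8 fell in ATF6aKO and 2 rose and 9 fell in ATF6bKO.

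Matn1, which encodes a cartilage matrix adaptor, rose most by p in ATF6aKO, by 4.49 (SE 0.33, 22.5-fold), and rose by 2.46 in ATF6bKO. Col2a1, the main cartilage collagen, rose by 4.19 (SE 0.37) and 2.86, and Col9a2, of a collagen on its fibril surface, by 3.68 (SE 0.33) and 1.88. Snorc, a cartilage transmembrane proteoglycan, rose by 3.14 and 2.52. Genes of the same list also fell, namely Col11a2, a fibril collagen chain, by -0.90 and -1.55, and Fgfr3, a receptor that restrains bone growth, by -1.19 and -1.67. Cytl1, a cartilage cytokine-like protein, fell by 0.47 in ATF6aKO, and Comp, a matrix glycoprotein, fell by 1.13 in ATF6bKO. Without ATF6aKO replicate 2 none of the 3 falls in ATF6aKO passed, and 14 rises did. Without ATF6bKO replicate 1 there were 6 rises and a median of 0.52 in ATF6bKO.

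Between the knockouts, 0 of these 19 passed in the fit of all 6 arrays. In a fit of the 4 knockout arrays alone, with the normalisation of all 6 kept, 5 passed, all higher in ATF6aKO. With the knockout arrays normalised alone, 0 passed. The median difference in the fit of all 6 arrays was 1.40, against 0 for all genes, and fell to 0.80 without ATF6bKO replicate 2. Cnmd, the antiangiogenic chondromodulin, measured 12.82 and 13.34 in ATF6aKO and 11.45 and 11.12 in ATF6bKO (difference 1.79, SE 0.24). Matn1 measured 12.21 and 12.48 against 10.71 and 9.92, and Mia, a small secreted cartilage protein, 12.21 and 12.55 against 10.81 and 9.62. These 3 genes had the smallest p of the list in this comparison, so the lack of overlap between their arrays follows from that choice. The knockouts did not overlap for 37.1% of all probes. For each of the 3, and for Sox9, ATF6bKO replicate 2 was the lowest of the 4 arrays.

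Targets of RUNX2 and MEF2C split. Of 10 tested (of 12 listed), 4 rose and 2 fell in ATF6aKO, and 3 rose and 2 fell in ATF6bKO, with medians of -0.81 and -0.84. The shares of all genes were 20.3% higher and 22.3% lower in ATF6aKO, and 17.3% and 20.2% in ATF6bKO. The rises included Col10a1, the collagen of hypertrophic cartilage (4.35, SE 0.69, and 2.87), Alpl, the phosphatase needed for mineral (3.66, SE 0.67, and 2.66), and Ihh, the hedgehog signal of prehypertrophic cells (1.95, SE 0.28, and 1.28). The falls were Bglap2, an osteocalcin gene of osteoblasts (-1.78, SE 0.25, and -1.36), and Vegfa, the vessel growth factor (-1.45, SE 0.29, and -0.90). Bglap2 is also one of the osteoblast markers. None rose and 1 fell in each comparison with the authors' deposited table.

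The medians of this list turned on one array. Spp1, which encodes osteopontin, measured 12.12 in WT replicate 1 and 7.21 in WT replicate 2, and 6.73 to 7.26 on the knockout arrays. Ibsp, which encodes bone sialoprotein, measured 13.33 and 8.02 in WT, and 7.16 to 8.63 in the knockouts. Without WT replicate 1 the medians became 0.47 and 0.33, with 2 and 1 falls; without WT replicate 2 they were -1.55 and -1.23, with 6 and 5 falls. The rises numbered 4 in ATF6aKO either way. In ATF6bKO against WT none rose without ATF6bKO replicate 1, and with a trended and robust variance 2 rose in ATF6aKO and 1 in ATF6bKO.

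**Figure D4:**
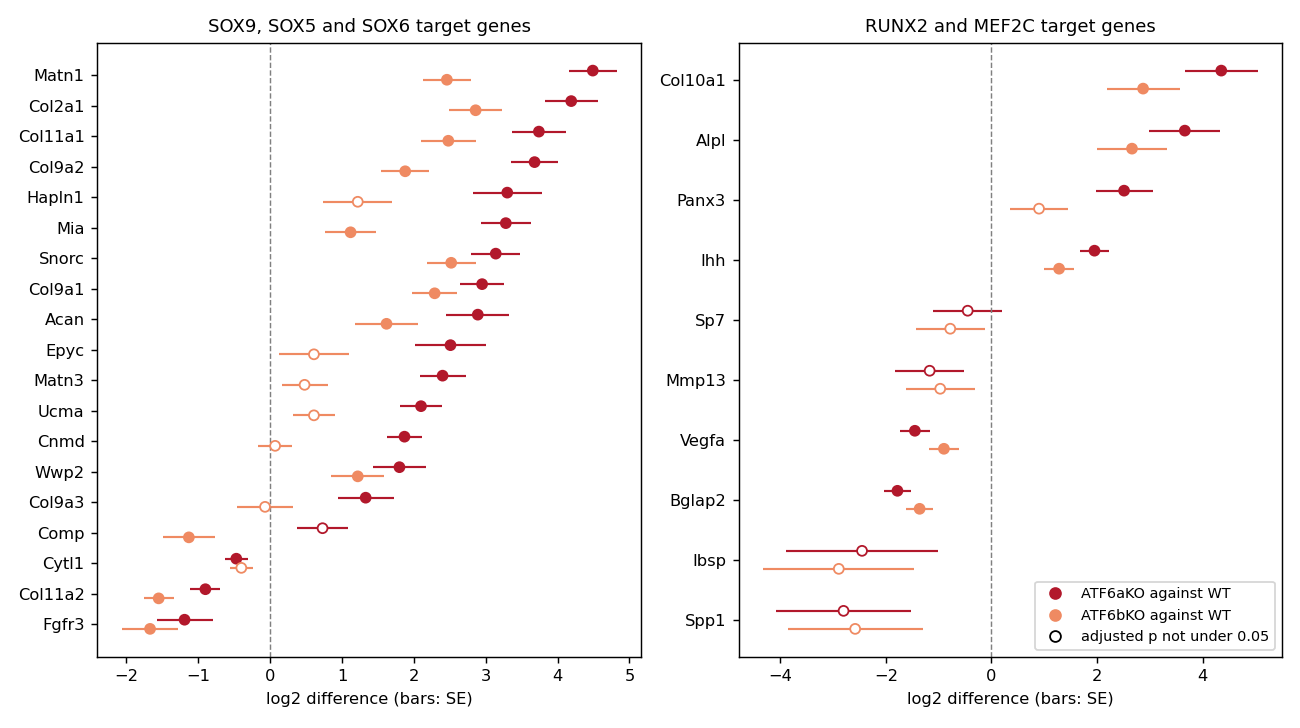
Log2 difference from WT (horizontal axis, bars are SE) for the target genes of the SOX trio (left) and of RUNX2 and MEF2C (right); colour gives the knockout and hollow points did not pass an adjusted p of 0.05. Most SOX targets lie right of 0, with Col11a2 and Fgfr3 left of it, and the RUNX2 and MEF2C targets spread to both sides.

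Among 16 partners and regulators of RUNX2 and MEF2C, 3 rose and 3 fell in ATF6aKO, and 2 rose and 2 fell in ATF6bKO. Of all genes, 20.3% rose and 22.3% fell in ATF6aKO, and 17.3% and 20.2% in ATF6bKO, so these counts were no higher than those shares. Pth1r, the receptor through which PTHrP delays hypertrophy, measured 10.01 and 9.72 (ATF6aKO), 9.38 and 8.42 (ATF6bKO), and 11.55 and 11.5 (WT), and fell by 1.66 (SE 0.30) and 2.63 (SE 0.30). Hdac9, a deacetylase that represses MEF2 factors, rose by 0.94 (SE 0.18) and 0.87 (SE 0.18). Leaving out either ATF6bKO array left no rise among the partners in ATF6bKO against WT; there was 1 without either ATF6aKO array or WT replicate 2, and 3 without WT replicate 1. In ATF6aKO the rises numbered 1 without ATF6aKO replicate 2 or WT replicate 2, and 5 without WT replicate 1. The authors' deposited table gave 8 rises and 3 falls in ATF6aKO, and 8 and 2 in ATF6bKO.

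Other members of the SOX family did not rise. Of 12 tested (of 16 listed), 0 rose and 6 fell in each knockout, where 22.3% (ATF6aKO) and 20.2% (ATF6bKO) of all genes fell. The falls numbered 4 with 75th percentile scaling, and the authors' deposited table gave 3 rises and 2 falls in each. Sox15 fell by 1.37 and 1.32, Sox21 by 1.14 and 0.82, and Sox1 by 0.90 and 0.62; Sox14 fell by 0.84 in ATF6bKO. In ATF6bKO the falls numbered 1 without ATF6bKO replicate 1 and 3 without ATF6bKO replicate 2 or WT replicate 2, and in ATF6aKO 3 without ATF6aKO replicate 2. Of 5 other MEF2, FOXA and NKX3 genes, Mef2b passed as lower in both knockouts, where it was not well above background on any array, and the other 4 did not pass. Those calls were lost with 75th percentile scaling (adjusted p = 0.322 and 0.588) and without any one array of the genotypes compared (0.0628 to 0.0889 and 0.0597 to 0.181).

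Likeness to Sox9 and to Runx2 (brighter probe) was measured as the root mean square difference between log2 values, each centred on its own mean. Over all 6 arrays the genes closest to Sox9 among 19122 were Thbs1 (0.079), Niban2 (0.124) and Max (0.157), and over the 4 knockout arrays Pcbp1 (0.016), Thbs1 (0.028) and Morf4l2 (0.033). The genes closest to Runx2 were Il3 (0.04), Nfic (0.085) and Pramel3 (0.102) over 6 arrays, and Il3 (0.019), Rbm5 (0.035) and Fign (0.035) over 4. So few arrays leave many genes with like patterns, and these are descriptions of the arrays.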

How the data were processed

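The deposited scanner files give an intensity for each spot; the submitters' processing notes name Agilent Feature Extraction, version 10.7.1.1. Per the labels' protocols, 150 ng of RNA was amplified and labelled with Cy5. Per the file headers, knockout arrays used a Cy5-only protocol (red channel used here) and WT arrays a 1-channel protocol. Median spot and background intensities were corrected with normexp (offset 50; limma 3.58.1, R 4.3.3), taken to log2, averaged per probe and quantile normalised. Symbols came from a GRCm38.p6 gene table by RefSeq accession. A probe was tested if both arrays of 1 or more genotypes had it well above background (24907 probes, all 14 members among them). The brightest such probe stood for a listed gene. Differences were fitted with limma's lmFit and eBayes over all 6 arrays, and p-values were Benjamini-Hochberg adjusted over all probes, with a threshold of 0.05.

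The authors' deposited value table holds log2 values. Between arrays its differences followed the green channel (r of at least 0.9947), including in the knockouts, whose labelled dye is in the red channel (r -0.1299 to 0.08568 among knockout arrays). Its column medians were 0.2, 0.1, 0, 0.2268, -0.5 and -0.5; its centring stays unknown, and it served only as an alternative. Of the named genes, all members were named, with up to 3 genes of smallest p in each direction per list and comparison; which of these to print was chosen after their values were seen. The members and lists were chosen with earlier results of these data known. The number of arrays limits the precision. The fit was tested on simulated data with independent noise and no slide or channel effect, so it says nothing about those effects. Of added log2 changes of 1 it recovered 26.9% (ATF6aKO against WT), 32.8% (ATF6bKO against WT) and 20.9% (ATF6aKO against ATF6bKO). Of changes of 2 it recovered 80.6%, 91% and 80.6%.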

Additional observations from a re-analysis of the deposited data

Results flagged for a closer look

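The green channel of the knockout arrays enters no comparison above, because the labels give Cy5 as the only dye. The Mef2c probe was well above background in it on ATF6bKO replicate 2, with an intensity of 48.5 over a background of 13. On the other 3 knockout arrays its green intensity was 15 to 21.5. It was the only such case among 56 member probe and array pairs, the rest of which reached at most 32. Of all spots that are not controls, 8.45% to 12.5% were well above background in that channel.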

How the results depend on the processing

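Over 746 alternative values of the member probes, 702 kept their direction and side of the threshold or were uncalled on both sides, 22 gained a call, 16 lost one and 6 reversed; 35 of those not reversed changed sign without a call on either side. All 6 reversals came from the authors' deposited table, which follows the green channel: Runx1 brighter probe 2.40 (ATF6aKO against WT), Runx1 dimmer probe 3.90 and 3.94, Runx2 dimmer probe 0.75 and 0.40 (ATF6aKO and ATF6bKO), and Runx2 brighter probe -1.35 (ATF6bKO). With that table Foxa3 in ATF6aKO was 1.05 (limma adjusted p = 0.105). With 75th percentile scaling, Sox9 (0.89, adjusted p = 0.0384), Foxa3 (0.67) and the dimmer Foxa2 probe (1.02) also passed in ATF6bKO against WT; in ATF6aKO against WT the dimmer Runx3 probe (0.63) and the brighter Foxa2 probe (0.66) did. That scaling put the median of all probes at 0.156 and 0.178, from -0.0228 and -0.0535, a shift of 0.179 and 0.231.

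In all, 10435 probes passed in ATF6aKO against WT (5002 higher, 5433 lower) and 9084 in ATF6bKO (4126 higher, 4958 lower); 75th percentile scaling gave 6864 higher and 4460 lower, and 6359 and 3776. Testing all non-control probes gave 22931 and 20450, with more probes tested (52531). Leaving out an array gave 5932 to 10326 and 3793 to 8854, lowest without ATF6aKO replicate 2 and without ATF6bKO replicate 1, and 4698 without ATF6bKO replicate 2. ATF6aKO against ATF6bKO went from 0 to 29 with only the 4 arrays compared, and ranged from 0 to 29 without an array (23 without ATF6aKO replicate 2, 29 without either WT array). A genotype left with 1 array is assumed to vary like the others.

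Replicate numbers did not pair the arrays (deviations correlated at -0.146, -0.0681 and 0.199). A replicate block gave 9701, 8319 and 0 probes, and the Runx2 brighter probe then passed in ATF6aKO against WT (adjusted p = 0.048). With the processed signal without normexp, log2 differences of dim probes were larger (Sox9 4.50, dimmer Foxa2 probe 4.57 and Foxa3 1.48 in ATF6aKO against WT); for Sox9 and Foxa2 these are fitted values, not bounds. The setting without background correction was chosen after seeing the data. Signals near background limit Sox9, Runx1 and the dimmer Foxa2 probe.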
